A study of Mus musculus with 12 samples.

Results

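The adhesion molecules and integrins described here are 8 genes read by 17 probe sets of a mouse Affymetrix array that carries 45101 probe sets in all. They were chosen by name from a fixed list: Alcam with 4 probe sets, Cd44 with 3, Icam1 with 1, Itga4 with 3, Itgb1 with 3, and Itgb7, Itgal and Selplg with 1 each. The list states no threshold. It was drawn up with earlier results of these arrays in view and singles out Alcam, so the differences below describe the members, and whether they pass the threshold of the fit is no independent evidence. No p-value is given for Alcam.

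The 12 arrays fall into 4 groups of 3. Transgenic Treg cells are CD4+ CD25hi cells sorted directly from spleens of C57BL/6-2Rbeta-WT/thymus transgenic mice, which lack their own IL-2 receptor beta chain and carry a wild-type beta chain transgene named for the thymus, so that IL-2 receptor function outside the thymus is defective. C57BL/6 Treg cells were sorted the same way from normal C57BL/6 mice. Transgenic and C57BL/6 effector cells are CD4+ CD25hi cells of the same 2 kinds of mice, sorted after whole spleen cells had been cultured with anti-CD3, which triggers the T cell receptor, for 48 hours. Each Treg array held a pool of 3 to 15 mice aged 7 to 33 weeks, and each effector array held 1 mouse aged 9 to 15 weeks. Transgenic Treg arrays 1 to 3 held 4, 8 and 3 mice aged 33, 13 and 7 to 16 weeks. C57BL/6 Treg arrays 1 to 3 held 8, 8 and 15 mice aged 12, 12 and 10 weeks. Age and pool size thus differed between strains in Treg cells, and their part was not tested. The oldest pool, at 33 weeks, is transgenic Treg array 1. Both sorts rested on CD4 and CD25, and the labels name no other marker. In sorted bulk samples a smaller share of cells that carry a transcript and less of it per cell cannot be told apart. Effector cells were cultured with anti-CD3 and Treg cells were not, so population cannot be told apart from that culture. Fresh and cultured cells also differ in pooling of mice and in the provider's sample codes, so population cannot be told apart from these either.

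Values are log2 GCRMA values, with array medians of 3.08 to 3.27, so probe sets at 3 to 4 sit in the dim bulk of an array and those at 10 to 12 are bright. The lowest value of an array was 0.94 to 0.96 on Treg arrays and 0.30 to 0.33 on effector arrays. Population differences below rest on the deposited scale unless another scaling is named. The number of arrays limits the precision. One effector library needs naming in advance: the purification label of transgenic effector array 3 describes fresh spleen cells, against its title and source, and several adhesion probe sets stood apart on it. The transferrin receptor, an iron-uptake receptor of dividing cells, read 8.02 on that array on its 3′ control probe set, below the 9.19 to 10.43 of the other 5 effector arrays but above the 4.39 to 7.66 of the 6 Treg arrays. On the 5′ control probe set that array read 5.77, also below the other effector arrays (6.25 to 8.20), but on the middle one it read 7.28, within their 6.95 to 8.63. Both values lay above the Treg arrays (3.21 to 4.25 and 3.36 to 4.70). Other markers of Treg cells, T cells and other cell types, and the disrupted receptor gene, were not analysed here, because gene names were at hand for the members only.

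T cells leave the blood in steps. PSGL-1, the product of Selplg, binds selectins and lets the cell roll, after which integrins, pairs of an alpha and a beta chain, grip ligands of the immunoglobulin family on the vessel wall or on another cell. Itgal encodes the alpha chain of LFA-1, whose main ligand is ICAM-1. Itga4 encodes the alpha 4 chain, which pairs with beta 1 (Itgb1) as VLA-4, a receptor of VCAM-1 and fibronectin, or with beta 7 (Itgb7) as the gut-homing receptor of MAdCAM-1. CD44 binds hyaluronan and is a marker of antigen-experienced T cells, and ALCAM, or CD166, binds itself and CD6 on T cells.

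Of the 8 genes, 6 had a promoter window of 300 bases (250 before to 50 after the start) in the RefSeq-derived table of build GRCm38.p6. Windows are shown for Alcam, which differed between strains, for Itga4, which was higher in Treg than in effector cells, and for Icam1, the only one of the 6 with a match to the core motif of STAT5, the factor activated by the IL-2 receptor. Capitals mark matches on either strand to TTCNNNGAA (STAT5), GGGCGG (Sp1 and related factors) or TATAAA, the core element bound by TBP. No match overlapped another.
Alcam, chr16:52453032-52453331, minus strand: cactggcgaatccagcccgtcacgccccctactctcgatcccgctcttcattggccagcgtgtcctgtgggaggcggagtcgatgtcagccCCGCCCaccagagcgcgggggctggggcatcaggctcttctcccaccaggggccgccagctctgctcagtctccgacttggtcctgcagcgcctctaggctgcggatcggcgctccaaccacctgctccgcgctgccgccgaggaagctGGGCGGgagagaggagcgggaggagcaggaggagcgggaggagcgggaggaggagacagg
Itga4, chr2:79255176-79255475, plus strand: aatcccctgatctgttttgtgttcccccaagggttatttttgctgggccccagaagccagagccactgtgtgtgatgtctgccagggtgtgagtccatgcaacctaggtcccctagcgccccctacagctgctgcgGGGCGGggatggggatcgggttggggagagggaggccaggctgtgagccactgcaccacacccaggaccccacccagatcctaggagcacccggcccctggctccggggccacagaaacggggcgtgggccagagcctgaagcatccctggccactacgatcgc
Icam1, chr9:21015690-21015989, plus strand: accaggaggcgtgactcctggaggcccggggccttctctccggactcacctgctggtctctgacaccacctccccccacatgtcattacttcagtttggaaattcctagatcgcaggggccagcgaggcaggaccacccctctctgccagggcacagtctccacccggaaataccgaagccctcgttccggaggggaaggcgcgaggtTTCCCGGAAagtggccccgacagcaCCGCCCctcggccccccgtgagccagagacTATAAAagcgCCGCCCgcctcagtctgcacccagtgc
The STAT5 core was found in 8.3% of all 32851 windows of this length, GGGCGG in 35.7% and TATAAA in 13.6%. Another motif, TGANTCA of AP-1, was found in 7.8% of all windows and in none of the 6. The Alcam window held 2 matches to GGGCGG and none to the STAT5 core. In the Icam1 window the TATAAA match began at base 14 after the start used here, not before it. These letters describe the windows only.

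Alcam was the member that differed between strains. All 4 of its probe sets averaged lower in transgenic than in C57BL/6 cells, in Treg cells and in effector cells alike. In Treg cells probe set 1426300_AT read 4.65, 5.14 and 5.03 on the transgenic arrays, against 6.64, 6.45 and 7.24 on the C57BL/6 arrays. The groups did not overlap, and the means were 4.94 ± 0.26 and 6.78 ± 0.41 (log2, SD, n = 3 each), a change of -1.84 on the log2 scale (SE 0.22), or 3.57-fold. Probe set 1426301_AT read 5.17, 4.88 and 5.57 in transgenic Treg cells, against 7.77, 7.03 and 7.01 in C57BL/6 Treg cells. Its groups were also apart, by -2.06 on the log2 scale (SE 0.29), or 4.18-fold. Among the 18271 probe sets tested, these changes ranked 117th and 89th by size. Both were called in the fit to 12 arrays, and neither was in a fit to the 6 Treg arrays alone. Alcam was singled out with results of these arrays in view, so these ranks and calls only describe it.

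In effector cells 1426300_AT read 7.72, 7.64 and 7.88 on the transgenic arrays and 9.60, 9.47 and 9.47 on the C57BL/6 arrays. The arrays of each group lay close together beside the gap between groups, which was -1.77 on the log2 scale (SE 0.22), or 3.40-fold. Probe set 1426301_AT read 5.74, 5.71 and 6.33 in transgenic effector cells, against 7.49, 6.89 and 6.84 in C57BL/6 effector cells. These groups did not overlap either, and the log2 change was -1.15 (SE 0.29). It passed the threshold of an adjusted p of 0.05 only when C57BL/6 Treg array 1 or transgenic effector array 3 was left out or arrays were weighted, and not in the other alternatives run.

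The 2 dimmer Alcam probe sets showed where single arrays matter. Probe set 1437467_AT read 5.40, 5.39 and 5.29 in transgenic Treg cells, against 6.16, 5.97 and 6.58 in C57BL/6 Treg cells, with no overlap. In effector cells it read 3.47, 3.46 and 5.57 on the transgenic arrays and 5.88, 5.97 and 5.02 on the C57BL/6 arrays. The groups overlap through array 3 of each strain (5.57 transgenic, 5.02 C57BL/6), and the log2 change was -1.46 with that array and -2.16 without it, where it passed the threshold. The last one, 1437466_AT, stayed below 5 on every array and was not tested. It read 2.25 to 2.81 in transgenic and 3.40 to 3.67 in C57BL/6 Treg cells, and 2.69 to 3.17 in transgenic and 3.13 to 3.93 in C57BL/6 effector cells.

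**Figure D1:**
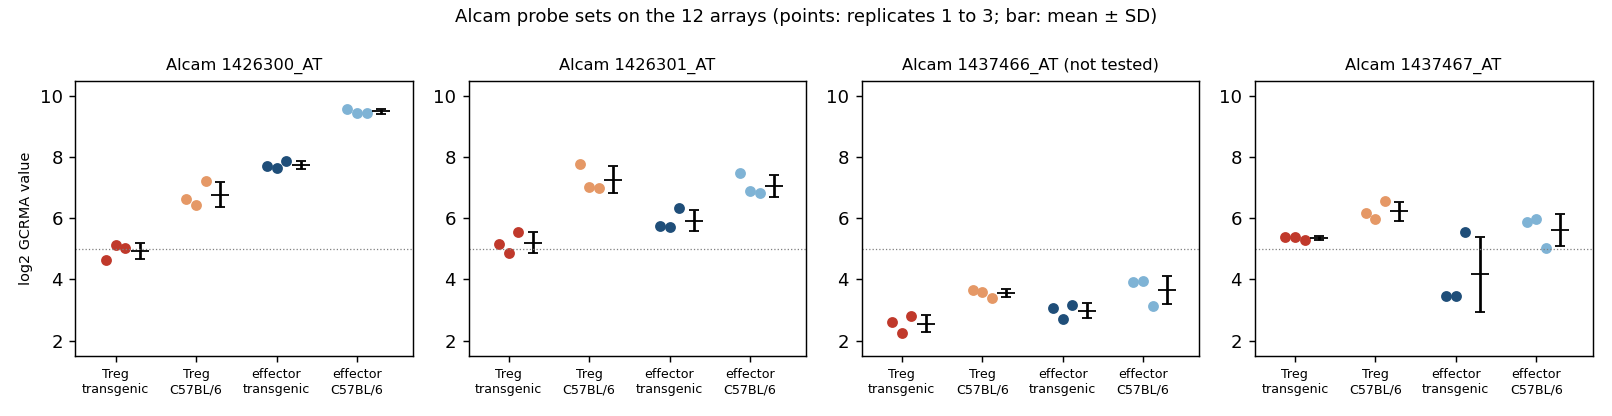
Log2 GCRMA values (y axis) of the 4 Alcam probe sets on each array, by group (x axis); points are replicates 1 to 3, the bar beside them is the mean with its SD, and the dotted line is the filter level of 5. In each panel the transgenic mean lies below the C57BL/6 mean of the same population, and on 1437467_AT transgenic effector array 3, at 5.57, sits apart from the other transgenic effector arrays at 3.47 and 3.46.

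Whether the strain change of Alcam differed between populations was tested as an interaction in the same fit. None of its 3 tested probe sets passed, and the differences (strain change in Treg minus strain change in effector cells) were -0.07 for 1426300_AT (95% interval -0.75 to 0.61), -0.92 for 1426301_AT (-1.83 to -0.01) and 0.58 for 1437467_AT (-0.94 to 2.10). The intervals are wide, and strain changes of unequal size lie within them. With gene-by-gene array weights the third was 1.52 and passed. Between populations the Alcam probe sets differed in direction. On 1426300_AT the difference of Treg from effector cells was -2.81 on the log2 scale in transgenic mice (7.00-fold) and -2.74 in C57BL/6 mice (6.66-fold). On 1426301_AT the difference of Treg from effector cells was -0.72 in transgenic and 0.19 in C57BL/6 mice, and on 1437467_AT it was 1.20 in transgenic and 0.61 in C57BL/6 mice.

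Outside Alcam no tested member passed the test between strains, in either population. Of the 17 member probe sets, 14 were tested, because 3 or more arrays read 5 or above. In Treg cells 2 of them were called lower and none higher in transgenic mice, both of Alcam, where 1.19% of all tested probe sets were called (0.805% lower). In effector cells 1 was called, again lower and of Alcam, where 2.99% of all tested probe sets were (1.08% lower). The groups of 3 arrays did not overlap in 4 of the 14 in Treg cells, against 14.8% of all tested probe sets, and in 5 in effector cells, against 22.8%. The median log2 change of the 14 was -0.33 in Treg and 0.11 in effector cells, beside 0.03 and -0.01 over all tested probe sets. The list was drawn up with results of these arrays in view and singles out Alcam. These strain counts and medians are therefore no result about the members as a group. None of the 14 was called in the interaction, where 2.26% of all tested probe sets were.

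Itgb1 came nearest to Alcam among the other members in Treg cells. Its probe set 1426918_AT read 8.47, 9.01 and 9.13 on transgenic and 9.40, 9.55 and 10.30 on C57BL/6 Treg arrays. The groups did not overlap, but the log2 change of -0.88 (95% interval -1.54 to -0.22) did not pass (limma adjusted p = 0.297), and its unadjusted p was 0.0133. In effector cells the same probe set read 10.45, 10.11 and 9.64 on transgenic and 10.77, 10.04 and 10.52 on C57BL/6 arrays, which overlap, for a log2 change of -0.38 (limma adjusted p = 0.646). The other Itgb1 probe sets, 1426919_AT and 1426920_X_AT, read 3.09 to 3.80 on all 12 arrays and were not tested. The array medians lay between 3.08 and 3.27.

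Itga4 was higher in Treg than in effector cells in both strains. Its brightest probe set, 1436037_AT, read 10.83, 10.21 and 10.38 on transgenic Treg arrays, against 7.49, 7.27 and 9.14 on transgenic effector arrays. In C57BL/6 mice it read 10.78, 11.17 and 10.70 in Treg cells, against 7.60, 6.12 and 7.12 in effector cells. All 6 Treg arrays lay above all 6 effector arrays. The difference was 2.50 on the log2 scale in transgenic mice (standard error 0.48, limma adjusted p = 0.000607), or 5.67-fold, and 3.93 in C57BL/6 mice (standard error 0.48, limma adjusted p = 1.63e-05), or 15.3-fold. The value on transgenic effector array 3, 9.14, was the highest of the effector arrays by far, and without that array the difference in transgenic mice was 3.09.

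The dimmer Itga4 probe sets ran the same way between populations. Probe set 1421194_AT read 6.45 to 7.42 in transgenic Treg cells and 3.58 to 3.88 in transgenic effector cells, and 7.25 to 7.62 in C57BL/6 Treg cells and 3.60 to 3.64 in C57BL/6 effector cells. On this probe set transgenic effector array 3, at 3.88, was again the highest effector array. Probe set 1450155_AT read 5.55 to 6.09 in transgenic Treg and 3.01 to 3.04 in transgenic effector cells, and 3.71, 6.23 and 6.95 in C57BL/6 Treg and 2.76 to 2.95 in C57BL/6 effector cells. The low C57BL/6 Treg value, 3.71, is array 1. Effector levels of both dimmer probe sets lay near the array medians of 3.15 to 3.27, where a GCRMA value rests largely on the background correction. Both reached 5 on Treg arrays only and so passed the filter through the population where they are high, and their population differences are given as levels, with no test.

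Between strains Itga4 did not pass the test. In Treg cells its probe sets changed by -0.53 (1421194_AT, limma adjusted p = 0.511), -0.41 (1436037_AT, 0.912) and 0.24 (1450155_AT, 0.969), and the last was -0.72 without C57BL/6 Treg array 1. In effector cells 1436037_AT averaged 7.97 ± 1.02 in transgenic and 6.95 ± 0.76 in C57BL/6 mice (log2, SD, n = 3 each), a log2 change of 1.02 (limma adjusted p = 0.335) that was 0.43 without transgenic effector array 3. Its strain change in Treg minus that in effector cells was -1.43 (95% interval -2.91 to 0.05, limma adjusted p = 0.389).

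Of the beta chains that pair with alpha 4, Itgb7 was bright in every group, and Itgb1 read 8.47 to 10.77 on 1426918_AT. The 2 chains differed between populations in opposite directions. Itgb7, on probe set 1418741_AT, read 12.13, 11.77 and 12.01 in transgenic Treg cells, against 10.67, 11.04 and 11.14 in transgenic effector cells. In C57BL/6 mice it read 11.86, 11.89 and 11.55 in Treg cells, against 10.36, 10.24 and 11.31 in effector cells. Treg cells were higher with no overlap in both strains, by 1.02 in transgenic mice (2.02-fold, limma adjusted p = 0.00397) and 1.13 in C57BL/6 mice (2.19-fold, limma adjusted p = 0.00187). After quantile normalization these differences were 1.66 (3.17-fold) and 1.80 (3.48-fold). Itgb1, on 1426918_AT with the values given above, was lower in Treg than in effector cells by 1.19 on the log2 scale in transgenic mice (2.29-fold, limma adjusted p = 0.00385). In C57BL/6 mice its difference was -0.69 (limma adjusted p = 0.0547, and 0.0194 with the replicate number as a block), where Treg and effector arrays overlap. After quantile normalization the differences of Itgb1 were -0.69 in transgenic mice (limma adjusted p = 0.0495) and -0.080 in C57BL/6 mice (limma adjusted p = 0.813). Between strains Itgb7 changed by 0.20 in Treg cells (95% interval -0.36 to 0.76) and 0.32 in effector cells (-0.25 to 0.88), and did not pass.

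Itgal, on probe set 1435560_AT, read 11.87, 11.68 and 11.91 in transgenic Treg cells, against 12.73, 12.72 and 12.11 in transgenic effector cells. In C57BL/6 mice it read 11.69, 11.91 and 11.93 in Treg cells, against 12.67, 12.37 and 12.61 in effector cells. Treg cells were lower with no overlap, by 0.70 on the log2 scale in both strains (1.62-fold and 1.63-fold, limma adjusted p = 0.00336 in transgenic and 0.00298 in C57BL/6 mice), but with quantile normalization of all arrays the differences were -0.03 and 0.03. The median of all tested probe sets differed by -0.21 in transgenic and -0.26 in C57BL/6 mice as deposited and by 0.07 and 0.02 after quantile normalization. The strain change of Itgal was -0.03 in Treg (95% interval -0.40 to 0.35) and -0.03 in effector cells (-0.41 to 0.35), the narrowest intervals among the members.

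**Figure D2:**
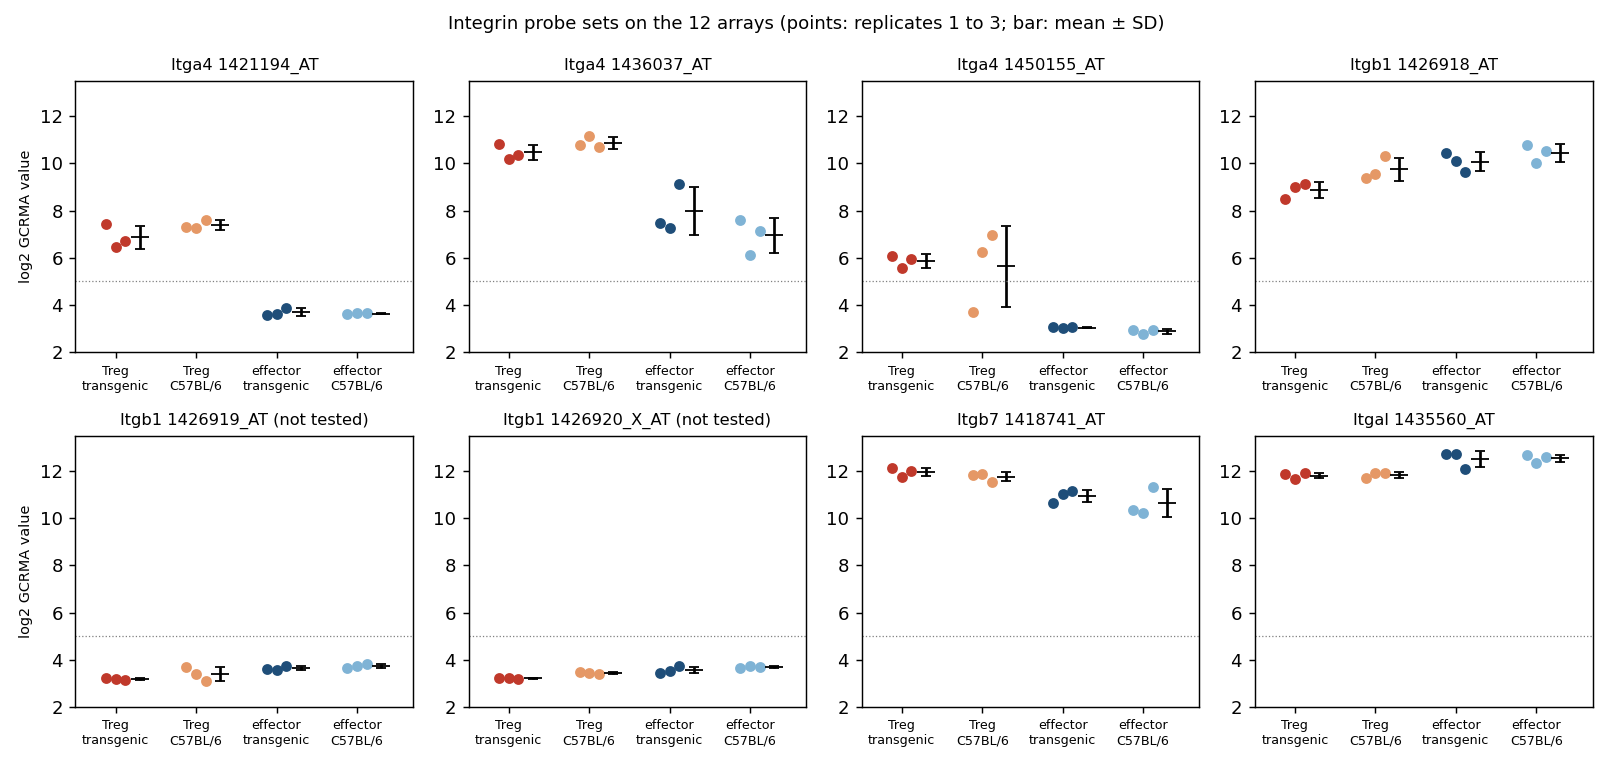
Log2 GCRMA values (y axis) of the 8 integrin probe sets on each array, by group (x axis); points are replicates 1 to 3, the bar is the mean with its SD, and the dotted line is the filter level of 5. The 3 Itga4 panels step down between Treg and effector groups, Itgb7 at 11.97 and 11.77 in Treg cells lies above its effector means of 10.95 and 10.64, and 1426919_AT and 1426920_X_AT of Itgb1 stay between 3.09 and 3.80.

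Icam1, on probe set 1424067_AT, read 9.08, 8.87 and 8.71 in transgenic Treg cells, against 9.56, 9.30 and 9.06 in C57BL/6 Treg cells. In effector cells it read 8.48, 8.40 and 9.74 on transgenic and 8.21, 8.82 and 8.51 on C57BL/6 arrays. The strains overlapped in both populations, with log2 changes of -0.42 in Treg cells (limma adjusted p = 0.818) and 0.36 in effector cells (limma adjusted p = 0.702). The effector value rests on array 3 and was -0.08 without it. Treg cells of C57BL/6 mice read 0.80 above effector cells (1.74-fold, limma adjusted p = 0.0419), a call that was lost in 7 of 12 fits with 1 array left out, with adjusted p up to 0.138 (without C57BL/6 effector array 1). In transgenic mice the difference was 0.02 (95% interval -0.69 to 0.72).

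Cd44 was bright on probe sets 1423760_AT and 1434376_AT and dimmer on 1452483_A_AT, and the 3 differed among themselves. Probe set 1423760_AT read 10.67, 10.99 and 11.02 in transgenic and 10.71, 11.09 and 11.61 in C57BL/6 Treg cells, and 10.46, 10.40 and 11.24 in transgenic and 10.36, 10.22 and 10.15 in C57BL/6 effector cells. Probe set 1434376_AT read 10.77, 11.31 and 10.79 in transgenic and 10.83, 10.77 and 11.34 in C57BL/6 Treg cells, and 11.83, 11.68 and 12.10 in transgenic and 11.37, 11.25 and 11.36 in C57BL/6 effector cells. On both, the 3 transgenic effector arrays lay above the 3 C57BL/6 effector arrays, with log2 changes of 0.45 (limma adjusted p = 0.454) and 0.55 (limma adjusted p = 0.192, unadjusted p = 0.0164) that did not pass. Without transgenic effector array 3 these changes were 0.18 and 0.43. The Treg groups overlapped, with changes of -0.24 and -0.02. The third, 1452483_A_AT, read 8.68 to 9.36 in transgenic and 8.00 to 9.93 in C57BL/6 Treg cells, and 8.73 to 8.91 in transgenic and 7.85 to 8.81 in C57BL/6 effector cells.

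Between populations 1423760_AT was higher in Treg than in effector cells of C57BL/6 mice by 0.89 on the log2 scale (1.85-fold, limma adjusted p = 0.00835; 1.54 and 2.91-fold after quantile normalization), and 1434376_AT was lower in Treg than in effector cells of transgenic mice by 0.91 (1.88-fold, limma adjusted p = 0.00131). With quantile normalization the difference of 1434376_AT in transgenic mice was -0.24 and did not pass (limma adjusted p = 0.27). The other differences of these probe sets between populations did not pass, at 0.20 for 1423760_AT in transgenic mice (0.84 after quantile normalization, limma adjusted p = 0.0131) and -0.35 for 1434376_AT in C57BL/6 mice, and the second was 0.37 after quantile normalization. On 1452483_A_AT the difference was 0.15 in transgenic and 0.48 in C57BL/6 mice (0.62 and 0.92 after quantile normalization), and none of these passed. As deposited, the direction between Treg and effector cells thus differed between 1423760_AT and 1434376_AT, but in neither strain were both called. After quantile normalization all Cd44 probe sets read higher in Treg cells of C57BL/6 mice.

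Selplg, on probe set 1449127_AT, read 12.55, 11.97 and 12.19 in transgenic Treg cells, against 12.11, 11.69 and 11.60 in C57BL/6 Treg cells. It read 12.02, 12.26 and 11.99 in transgenic effector cells, against 12.22, 12.02 and 12.52 in C57BL/6 effector cells. All groups overlap with their counterparts. The log2 change between strains was 0.44 in Treg cells (95% interval 0.02 to 0.86, limma adjusted p = 0.506) and -0.17 in effector cells (limma adjusted p = 0.799). For Selplg the strain change in Treg minus that in effector cells was 0.61 (95% interval 0.008 to 1.20) and did not pass (limma adjusted p = 0.363, unadjusted p = 0.0476). Treg cells differed from effector cells by 0.15 in transgenic mice and -0.45 in C57BL/6 mice (limma adjusted p = 0.495 and 0.0517, the second 0.0346 with the replicate number as a block), and these were 0.82 and 0.28 after quantile normalization.

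**Figure D3:**
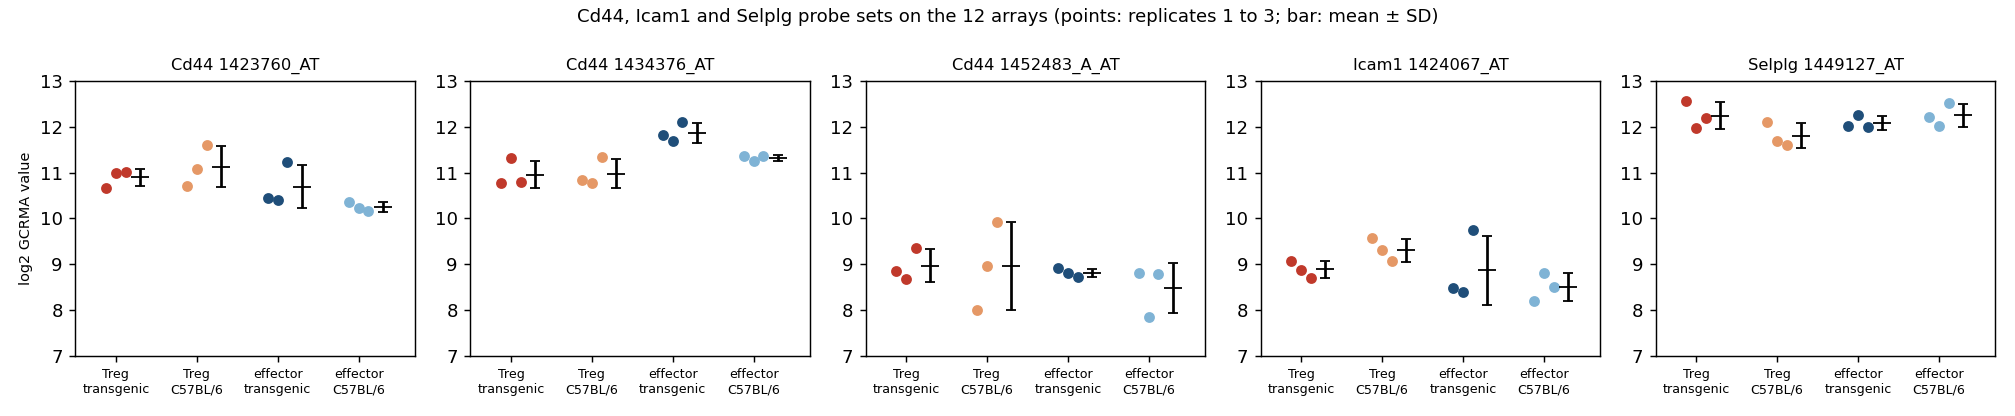
Log2 GCRMA values (y axis, from 7 to 13) of the Cd44, Icam1 and Selplg probe sets on each array, by group (x axis); points are replicates 1 to 3 and the bar is the mean with its SD. Transgenic effector array 3 is the highest effector array for Icam1, at 9.74, and for 1423760_AT of Cd44, at 11.24.

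Between populations 10 of the 14 tested members were called in transgenic mice, 5 higher and 5 lower in Treg cells, where 70% of all tested probe sets were called (30% higher, 40% lower). In C57BL/6 mice 8 were called, 6 higher and 2 lower in Treg cells, where 73.8% were (31.7% higher, 42% lower). Both shares are close to or below those of all tested probe sets, so these counts are no result about the members as a group. The 1421194_AT and 1450155_AT probe sets of Itga4 are in both counts although they passed the filter through Treg arrays only, and without them 8 of 12 were called in transgenic mice (3 higher, 5 lower) and 6 of 12 in C57BL/6 mice (4 higher, 2 lower). Among these 12, the calls common to both strains were those of 1426300_AT of Alcam and of Itgal, lower in Treg cells, and of 1436037_AT of Itga4 and Itgb7, higher in Treg cells. Both comparisons and the strain comparisons use the same arrays. Of the 10 calls in transgenic mice, those of 1426301_AT and 1437467_AT of Alcam were at adjusted p just under the threshold and were lost with the replicate number as a block and in 8 and 9 of 12 fits with 1 array left out.

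**Figure D4:**
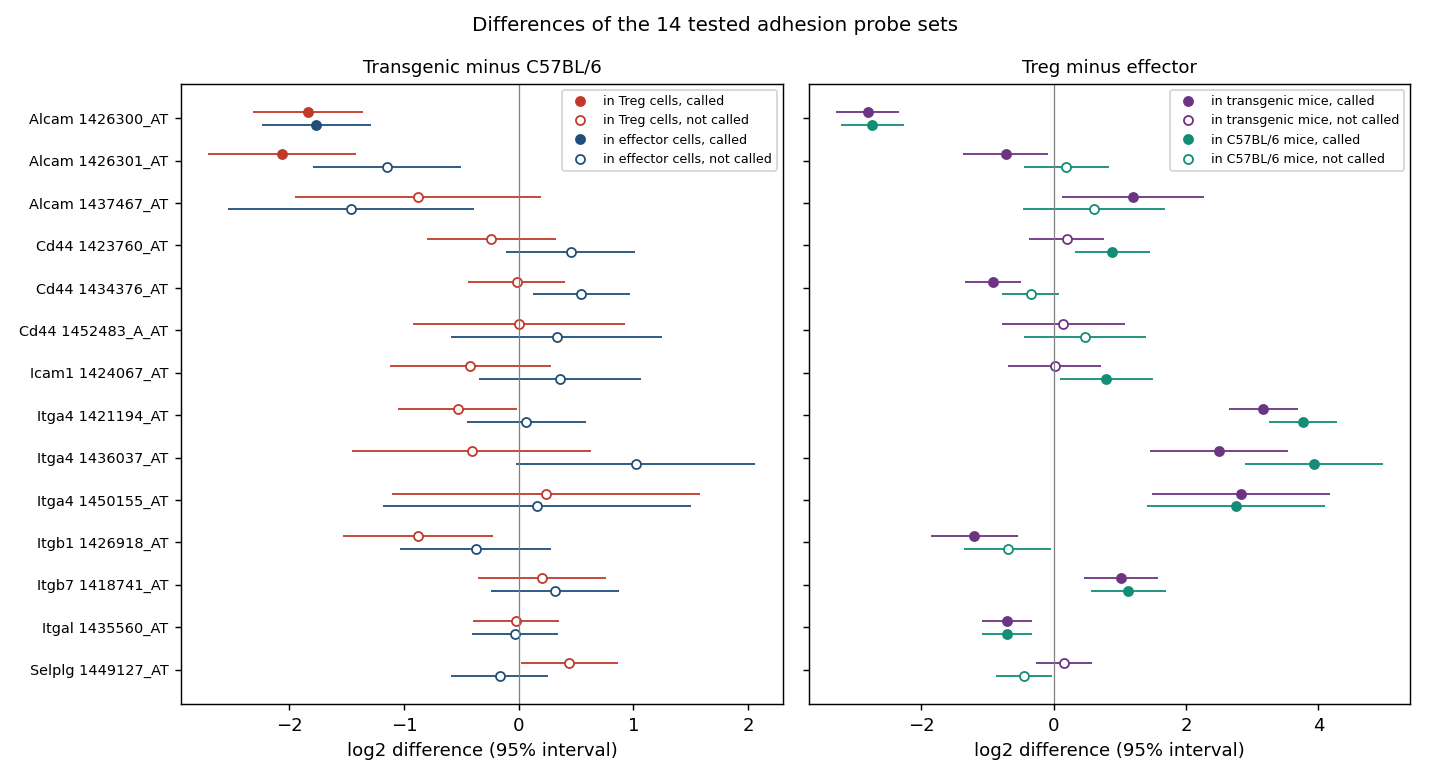
Log2 differences (x axis) of the 14 tested probe sets (y axis) with 95% intervals from the fit to 12 arrays; left, transgenic minus C57BL/6 in Treg and in effector cells; right, Treg minus effector in transgenic and in C57BL/6 mice; filled points were called at an adjusted p under 0.05. On the left only Alcam points are filled, and on the right 1436037_AT of Itga4 lies at 2.50 and 3.93. The other Itga4 probe sets, 1421194_AT and 1450155_AT, passed the filter through Treg arrays only, so their filled points on the right are no evidence of a difference.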

How the data were processed

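Each array has 1 deposited log2 value per probe set, made by the authors with GCRMA per the submitters' processing notes (version not given in the sources used here). Whether all arrays were normalized together is not given either. The lowest value of an array differed by population, as given above, and whether the populations were normalized apart was not tested. A difference of processing between them cannot be told apart from population. Per the labels' protocols, RNA went through a single in vitro transcription. The 17 members and all gene lists were chosen with earlier results of these data known, and member names come from the list that defines them. Gene names of other probe sets were not at hand, so the lists of related adhesion genes, the cell type markers and the search for genes of like pattern were not run.

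The 64 control probe sets were left out, and 18271 of 45037 others were kept because 3 or more arrays read 5 or above. A model with 4 group means was fitted to them on all 12 arrays with limma 3.58.1 (R 4.3.3, eBayes with trend), with Benjamini-Hochberg adjustment over all 18271, and a probe set was called at an adjusted p under 0.05. Each probe set was kept apart and none averaged into a gene. All 17 members are accounted for. The fit was tested on simulated data with independent noise on each array, so it was not tested under the correlations between arrays given below. The series text calls replicates biologically distinct.

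Replicate numbers come from the sample titles. Deviations from group means of same-numbered transgenic and C57BL/6 Treg arrays correlated at 0.583, 0.102 and 0.511 across probe sets, although no label pairs them. Different-numbered Treg arrays ran from -0.541 to 0.114, so the value of replicate 2 does not stand out. The values given come from the fit without a block, and the blocked value stands beside them where it changes a call. For same-numbered effector arrays the correlations were 0.21, -0.34 and -0.34, and for different-numbered ones -0.30 to 0.42. No pairing was assumed. Figures were drawn with matplotlib 3.10.9.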

Additional observations from a re-analysis of the deposited data

How the results depend on the processing

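Alternatives were a filter at a log2 value of 7 and none, median centring, quantile normalization, no variance trend, array weights, the arrays of a contrast alone, a 2-fold rule without a test, replicate and sample code blocks, and leaving out each of 12 arrays. The default estimate of array weights, which was the planned one, did not converge and gave 1 array a weight of 36.2. The gene-by-gene estimate (highest weight 5.02) was chosen after this was seen. The default weights called 5 members between strains in Treg cells, 4 in effector cells and 2 in the interaction, against 2, 3 and 1 with the gene-by-gene weights.

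Of 21 called member values, recomputed 420 times, 385 results kept direction and call, 34 lost the call and 1 reversed (Itgal between populations in C57BL/6 mice). The 385 include every recomputed population difference of 1421194_AT and 1450155_AT of Itga4, which passed the filter through Treg arrays only. Many alternatives, such as another filter or leaving out an array of another group, cannot move a log2 value and can only change its call. The tally is therefore no measure of how firm the values are. Of 39 values not called, recomputed 799 times, 24 results gained the call and 36 reversed. Of all 60 values, 37 of 1219 results reversed. The cause was not tested. Members called between strains in Treg cells were 2, and 0 with the Treg arrays alone (limma, 4 at an unadjusted p under 0.05), where 74 probe sets were called in all, against 218 with 12 arrays. In effector cells 1 was called, 3 with array weights, 4 by the 2-fold rule, and 1 to 3 with an array left out (2 without C57BL/6 Treg array 1, 3 without transgenic effector array 3). Between populations in C57BL/6 mice 8 were called, and 5 passed the 2-fold rule. In the interaction 0 were called by limma (2 at an unadjusted p under 0.05), and 1 each with array weights and by the 2-fold rule. With the replicate number as a block the counts were 2 and 1 between strains in Treg and effector cells, 8 and 10 between populations in transgenic and C57BL/6 mice, and 0 in the interaction.

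Log2 values that reversed follow. Median centring gave 0.059 for 1434376_AT and 0.052 for Itgal between strains in Treg cells. Quantile normalization gave -0.0037 for 1452483_A_AT between strains in Treg cells, 0.012 for Itgal in effector cells, and 0.37 for 1434376_AT, 0.028 for Itgal and 0.28 for Selplg between populations in C57BL/6 mice. Array weights gave 0.20 for 1434376_AT and -0.23 for 1450155_AT between strains in Treg cells, 0.079 for Itgal in effector cells, -0.20 for 1426301_AT between populations in C57BL/6 mice and 0.37 for 1426300_AT in the interaction. The sample code block gave 0.24 for 1434376_AT in Treg cells and 0.11 for 1426300_AT in the interaction.

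With 1 array left out, strain changes in Treg cells ran from -0.20 to 0.16 (1434376_AT), -0.48 to 0.48 (1452483_A_AT), -0.72 to 0.90 (1450155_AT) and -0.10 to 0.044 (Itgal). In effector cells they ran from -0.076 to 0.60 (Icam1), -0.027 to 0.12 (1421194_AT) and -0.13 to 0.17 (Itgal). Population differences in transgenic mice ran from -0.051 to 0.29 (1452483_A_AT), -0.22 to 0.45 (Icam1) and -0.0040 to 0.29 (Selplg), and in C57BL/6 mice from -0.058 to 0.40 (1426301_AT) and -0.0046 to 0.96 (1452483_A_AT). The interaction of 1426300_AT ran from -0.23 to 0.16. The sample code block gives no population value, the contrast alone gives no interaction value, and alternatives for lists of other genes were not run because their names were not at hand. Precision is limited by the number of arrays, 3 a group.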
